A study of Mus musculus with 6 samples.

Results

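The 9 genes described here encode CC chemokines. They are Ccl2, Ccl3, Ccl4, Ccl5, Ccl6, Ccl7, Ccl9, Ccl20 and Ccl24, of 40879 gene symbols in the files. The members were selected on the CPM measured in these same libraries (counts scaled to the library total), as a list of symbols with no stated threshold, so their differences between the groups are a description and support no claim about the treatment. All 9 symbols were found, and 8 of them passed the filter on low counts; Ccl24 did not. The study asked about APB-R3, an engineered form of the interleukin-18 binding protein, and stellate cell activation. The cells were labelled as primary hepatic stellate cells of wild-type male mice. They were held for 24 h with vehicle (3 libraries) or APB-R3 (3 libraries). The amount of APB-R3 reads 150 µg/ml in the design text but 150 µg/kg in the protocol of the samples, so its unit is uncertain. The labels name no strain, age, number of animals or pooling, and do not tie the libraries of a group to separate cultures, so a p-value reflects the spread of these libraries alone, which may be technical.

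CC chemokines are small secreted proteins that draw leukocytes along a gradient, and they act through G protein-coupled receptors of the CCR family. In the liver they are made by resident macrophages (Kupffer cells), by sinusoidal endothelial cells and by hepatic stellate cells, the retinoid-storing pericytes that turn into matrix-producing cells when they are activated. Many of their genes are known targets of NF-kB, and CCL2 acting on its receptor CCR2 is known for bringing monocytes into the injured liver.

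Libraries held between 8323809 and 10792531 counts, with the lowest total in APB-R3 replicate 1. That library also stood apart. Chi-square per degree of freedom over genes was 9.58 to 13.6 between it and each of the other 5 libraries, against 5.54 to 8.84 among those 5. The stellate label was checked against markers. The 11 stellate cell markers summed to between 666 and 754 CPM in a library, with decorin (Dcn) at 274 to 332 CPM and the retinol esterase gene Lrat at 1.09 to 2.88 CPM. The 9 sinusoidal endothelial markers summed to between 5454 and 6476 CPM, above the stellate sum in every library. The median of their gene means was 383 CPM, against 14.0 CPM for the stellate markers. The 15 macrophage markers summed to between 440 and 725 CPM. Every chemokine level below is therefore that of a mixed culture, in which the endothelial markers as a list exceeded the stellate ones. In it, more cells of a type and more RNA per cell cannot be told apart, and the share of each cell type was not measured.

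The genes lie on 3 mouse chromosomes. In the order of protein-coding genes of the GENCODE M21 annotation, Ccl2 and Ccl7 are neighbours on chromosome 11. A further group on the same chromosome holds Ccl5, Ccl9 and Ccl6 in a row and, beyond the gene Rpl9-ps1, Ccl3 beside Ccl4. Ccl20 is on chromosome 1 and Ccl24 on chromosome 5. In RefSeq for GRCm38.p6 the span of Ccl4 overlaps that of Ccl3, which lies on the opposite strand, and the span of Ccl5 overlaps that of Gm32650. In GENCODE M21 the span of Ccl2 overlaps Gm17268 and that of Ccl6 overlaps E230016K23Rik, each on the opposite strand and with no shared exon. For the RefSeq overlaps only whole spans were compared, not exons. The annotation and strand setting of the counting are not named, so whether any counted read fell in a shared stretch is not known.

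The RefSeq promoter table (build GRCm38.p6, which is not the GRCm39 of the counts) matched 4 of the 9 genes. The 250 bases before the transcription start are shown for all 4, and the other members had no entry there. Capitals mark matches, on either strand, to the kappa B consensus bound by NF-kB, to the AP-1 motif TGANTCA, to the C/EBP motif TTGCNNAA and to the TATA box TATAAA.
Ccl3, chr11:83649379-83649628, minus strand: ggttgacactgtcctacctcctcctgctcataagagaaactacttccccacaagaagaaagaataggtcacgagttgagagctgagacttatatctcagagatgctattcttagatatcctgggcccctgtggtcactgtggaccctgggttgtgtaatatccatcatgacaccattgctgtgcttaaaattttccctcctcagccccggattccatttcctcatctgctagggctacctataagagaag
Ccl9, chr11:83578637-83578886, minus strand: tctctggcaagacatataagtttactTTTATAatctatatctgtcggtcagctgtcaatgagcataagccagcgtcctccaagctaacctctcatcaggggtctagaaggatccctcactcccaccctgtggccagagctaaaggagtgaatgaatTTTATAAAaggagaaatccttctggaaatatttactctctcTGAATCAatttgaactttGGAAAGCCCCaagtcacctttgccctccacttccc
Ccl20, chr1:83116516-83116765, plus strand: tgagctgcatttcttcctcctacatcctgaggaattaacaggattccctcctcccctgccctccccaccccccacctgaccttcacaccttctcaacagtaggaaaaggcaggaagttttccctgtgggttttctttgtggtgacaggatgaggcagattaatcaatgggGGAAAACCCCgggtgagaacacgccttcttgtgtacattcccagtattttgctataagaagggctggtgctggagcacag
Ccl6, chr11:83593088-83593337, minus strand: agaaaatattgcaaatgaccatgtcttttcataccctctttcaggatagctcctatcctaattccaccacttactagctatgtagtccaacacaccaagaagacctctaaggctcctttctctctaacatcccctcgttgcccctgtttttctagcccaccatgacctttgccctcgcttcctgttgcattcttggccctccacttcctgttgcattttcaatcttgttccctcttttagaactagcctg

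The window of Ccl9 held a kappa B match 35 to 26 bases before the start, an AP-1 match 53 to 47 bases before it and 3 TATA matches, of which 2 overlap. The window of Ccl20 held a kappa B match 80 to 71 bases before the start. No match to the 4 motifs was present in the windows of Ccl3 and Ccl6. Of all 32851 RefSeq windows of this length, 7.25% held the kappa B consensus, 6.75% the AP-1 motif, 9.56% the C/EBP motif and 12.4% a TATA box. These are matches of letters only.

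Levels of the 9 genes spanned more than 3 orders of magnitude. The libraries read 1 fragment near the 3' end of each transcript, so a count is not expected to grow with transcript length. Levels of different genes can be set side by side only roughly, because the annotation and strand setting of the counting are not named. Ccl2 was the most abundant, with 1425 ± 193 CPM over the 6 libraries (SD, n = 6), above 99.6% of the 12776 genes tested, and it made up 72.1% of the summed CPM of the 9 genes. Ccl6 followed at 306 ± 64.4 CPM and Ccl7 at 195 ± 43.5 CPM. Then came Ccl9 at 21.4 ± 9.44 CPM, Ccl3 at 12.4 ± 6.82 CPM and Ccl4 at 10.6 ± 7.60 CPM. The 3 least abundant were Ccl5 at 2.85 ± 1.50 CPM, Ccl20 at 2.54 ± 2.16 CPM and Ccl24 at 0.663 ± 0.572 CPM. The ranges of Ccl2 and Ccl6 did not overlap, nor did those of Ccl7 and Ccl9. All other neighbours in this order overlapped in range, and Ccl3 exceeded Ccl4 in 4 of 6 libraries and Ccl5 exceeded Ccl20 in 3 of 6. Together the 9 genes took between 0.166% and 0.249% of all counts of a library, with the highest share in APB-R3 replicate 1.

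**Figure D1:**
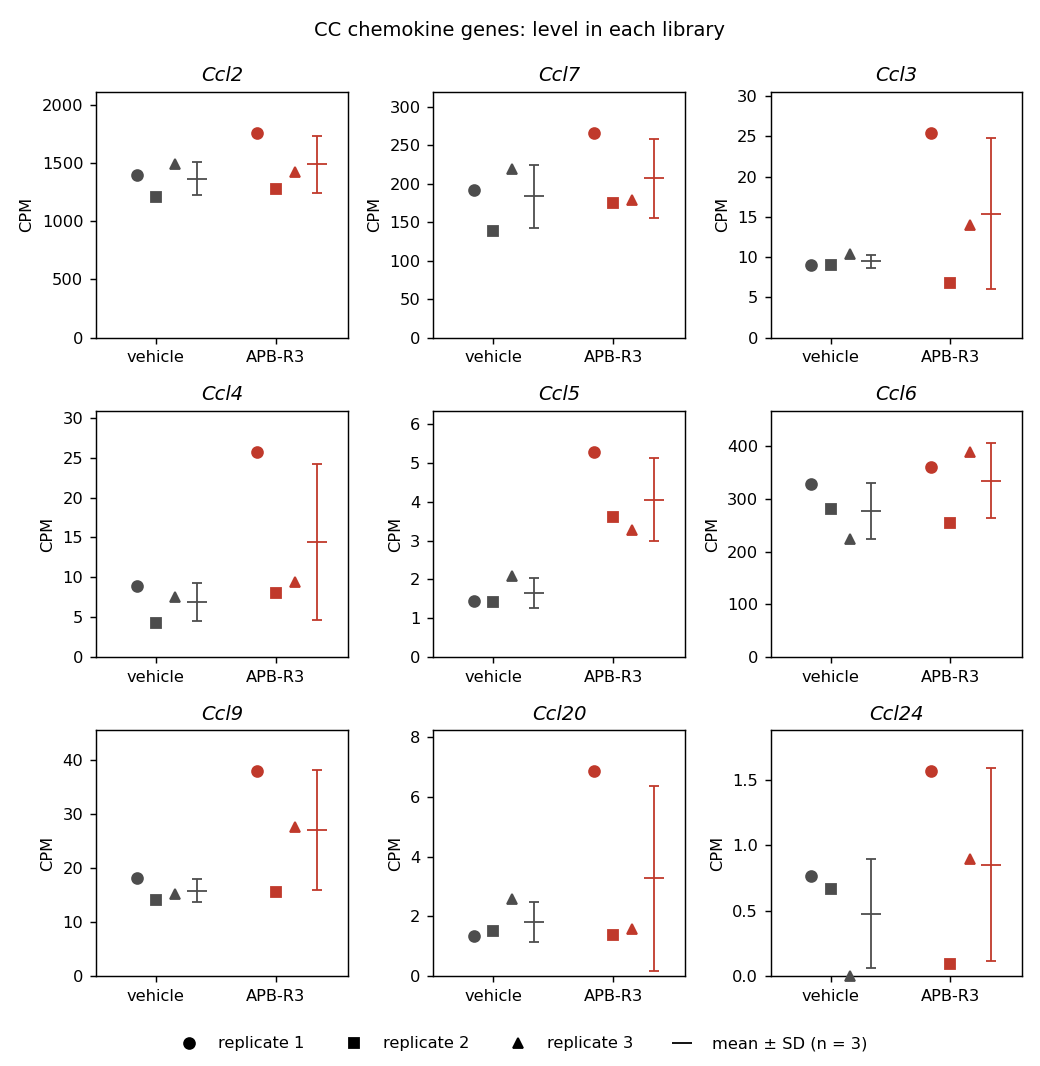
CPM of each CC chemokine gene in the 3 vehicle (grey) and 3 APB-R3 (red) libraries, with 1 panel and 1 linear scale a gene; marker shapes give the replicate number, and bars the mean ± SD. APB-R3 replicate 1 is the highest library in every panel except that of Ccl6, and Ccl5 is the only gene whose groups do not overlap.

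Ccl2 and Ccl7 encode the monocyte attractants MCP-1 and MCP-3, which both act on CCR2. Ccl2 had 1395, 1208 and 1488 CPM in vehicle replicates 1 to 3 and 1759.5, 1274 and 1425 CPM in APB-R3 replicates 1 to 3. Ccl7 had 192, 139 and 219 CPM in vehicle and 266, 175 and 179 CPM in APB-R3. In both genes vehicle replicate 2 was the lowest library and APB-R3 replicate 1 the highest, while the other APB-R3 libraries lay inside the vehicle range. In edgeR's fit over all genes, the log2 fold change of APB-R3 over vehicle was 0.12 (SE 0.10) for Ccl2 and 0.17 (SE 0.15) for Ccl7. With APB-R3 replicate 1 left out both turned, to −0.03 (SE 0.08) and −0.06 (SE 0.12). For Ccl7 it was 0.01 without vehicle replicate 2. The ratio of the pair ran from 6.61 to 8.70 counts of Ccl2 for each count of Ccl7 in the 6 libraries. Its mean was 7.58 ± 0.997 in vehicle and 7.29 ± 0.676 in APB-R3 (SD, n = 3 each), a difference smaller than the spread within either group.

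Ccl3, Ccl4 and Ccl5 encode MIP-1 alpha, MIP-1 beta and RANTES, attractants of monocytes and T cells, with CCR1 as a receptor of CCL3 and CCL5. Ccl3 had 9.01, 8.98 and 10.4 CPM in vehicle replicates 1 to 3 and 25.5, 6.76 and 14.0 CPM in APB-R3 replicates 1 to 3. The APB-R3 libraries lay on both sides of the vehicle range. Ccl4 had 8.92, 4.26 and 7.52 CPM in vehicle and 25.7, 8.06 and 9.43 CPM in APB-R3. Only APB-R3 replicate 1 stood far above the vehicle range, where an exact 95% Poisson interval ran from 22.4 to 29.4 CPM, and the highest upper bound in the other libraries was 11.5 CPM. Such intervals cover counting error only. The log2 fold change was 0.69 (SE 0.31) for Ccl3 and 1.05 (SE 0.35) for Ccl4, against 0.11 (SE 0.28) and 0.33 (SE 0.31) without APB-R3 replicate 1. For Ccl3 it was 1.05 without APB-R3 replicate 2. The ratio of Ccl3 to Ccl4 ran from 0.839 to 2.11 with no separation of the groups.

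Ccl5 was the only member whose 3 APB-R3 libraries all lay above its 3 vehicle libraries, where 4.75% of all genes tested were apart in this direction. It had 1.44, 1.42 and 2.09 CPM in vehicle replicates 1 to 3 (15, 15 and 22 counts), and 5.29, 3.61 and 3.28 CPM in APB-R3 (44, 39 and 33 counts). The closest libraries were vehicle replicate 3 and APB-R3 replicate 3, whose exact 95% Poisson intervals, 1.31 to 3.17 CPM and 2.25 to 4.60 CPM, overlapped. Its log2 fold change was 1.28 (SE 0.47), and 1.05 (SE 0.59) without APB-R3 replicate 1. It was the largest fold change among the 8 genes, on few counts. CCL5 is known as a product of T and NK cells as well as of activated macrophages. Of the 8 listed T, NK and B cell markers, Cd3e, Gzma and Cd79a had 0 counts in all 6 libraries, which allows up to 0.0494 CPM (3 counts over the 6 libraries). The 8 summed to 0.476 to 1.15 CPM in vehicle and 1.67 to 2.04 CPM in APB-R3, mostly from Klrb1c, and the groups did not overlap in this sum. Only Klrb1c passed the filter, and it was apart in the same direction, as were 4.75% of all genes tested. Its log2 fold change of 1.11 (SE 0.68) did not pass edgeR's test (adjusted p = 0.9998). The part of these cells in the Ccl5 values was not tested.

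Ccl6 and Ccl9 are rodent chemokine genes whose products act on CCR1 and are known from macrophages and other myeloid cells. Ccl6 had 329, 281 and 223 CPM in vehicle replicates 1 to 3 and 361, 254 and 389 CPM in APB-R3, and the groups overlapped. It was the only tested member whose highest library was not APB-R3 replicate 1 but replicate 3. Ccl9 had 18.2, 14.1 and 15.1 CPM in vehicle and 37.8, 15.6 and 27.6 CPM in APB-R3. Here APB-R3 replicates 1 and 3 lay above every vehicle library and replicate 2 inside the vehicle range. The log2 fold change was 0.26 (SE 0.13) for Ccl6 and 0.76 (SE 0.23) for Ccl9, against 0.19 (SE 0.12) and 0.43 (SE 0.21) when APB-R3 replicate 1 was left out. For Ccl6 it was 0.12 without vehicle replicate 3 and 0.15 without APB-R3 replicate 3, and it was 0.40 without vehicle replicate 1 and 0.42 without APB-R3 replicate 2. Each count of Ccl9 came with 17.6 ± 2.63 counts of Ccl6 in vehicle and 13.3 ± 3.45 in APB-R3 (SD, n = 3 each), with the lowest ratio, 9.55, in APB-R3 replicate 1 and overlapping groups. The summed macrophage markers were 546, 627 and 440 CPM in vehicle replicates 1 to 3 and 510, 503 and 725 CPM in APB-R3. Vehicle replicate 3 was thus the lowest and APB-R3 replicate 3 the highest library for both Ccl6 and these markers, and the part of the macrophage content in the Ccl6 values was not tested. All 15 macrophage markers had counts, with Timd4 at 0 to 0.288 CPM and the Kupffer cell gene Clec4f at 0.946 to 2.50 CPM.

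**Figure D2:**
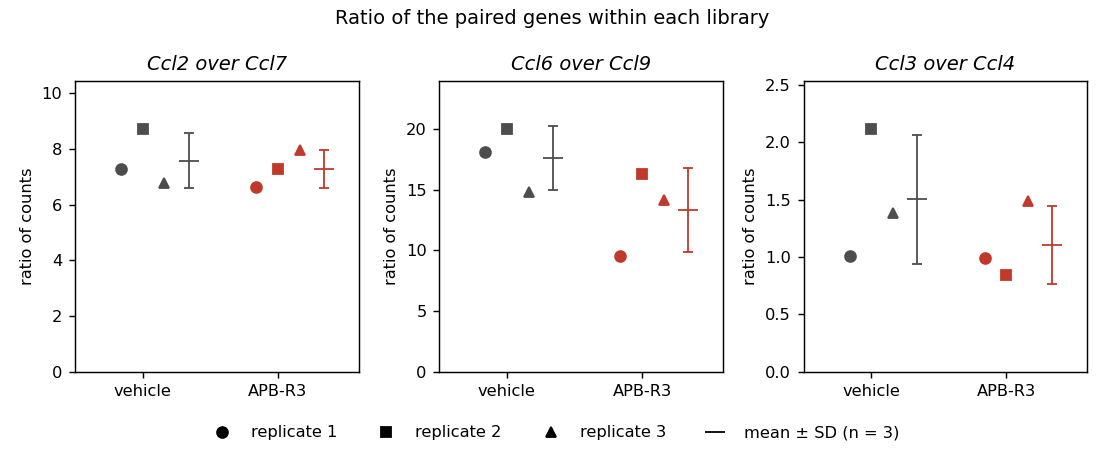
Ratio of counts within each library for Ccl2 over Ccl7, Ccl6 over Ccl9 and Ccl3 over Ccl4, in vehicle (grey) and APB-R3 (red), with the mean ± SD; marker shapes give the replicate number. Ccl2 over Ccl7 stays between 6.61 and 8.70, and the lowest Ccl6 over Ccl9 ratio, 9.55, is that of APB-R3 replicate 1.

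Ccl20 encodes MIP-3 alpha, the ligand of CCR6, and Ccl24 encodes eotaxin-2, which acts on the eosinophil receptor CCR3. Ccl20 had 1.34, 1.51 and 2.57 CPM in vehicle replicates 1 to 3 (14, 16 and 27 counts) and 6.85, 1.39 and 1.59 CPM in APB-R3 (57, 15 and 16 counts). The value of APB-R3 replicate 1 had an exact 95% Poisson interval of 5.19 to 8.87 CPM, and the highest upper bound elsewhere was 3.74 CPM. The other APB-R3 libraries lay within the vehicle range. The log2 fold change was 0.83 (SE 0.59), and it turned to −0.29 (SE 0.72) without APB-R3 replicate 1. Ccl24 was counted 8, 7 and 0 times in vehicle replicates 1 to 3, and 13, 1 and 9 times in APB-R3. The 0 of vehicle replicate 3 allows up to 0.286 CPM (3 counts in that library), and APB-R3 replicate 1, at 1.56 CPM, was again the highest library.

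None of the 8 tested members passed edgeR's quasi-likelihood test over all genes (adjusted p = 0.9998 for each), where 0% of 12776 genes passed. At an unadjusted p under 0.05 there were 4 members, Ccl3, Ccl4, Ccl5 and Ccl9, all higher, where 3.33% of all genes tested reached this level and 1.75% did so upward. DESeq2 and limma-voom each passed 0 members as well and had 3 at an unadjusted p under 0.05. The fold change was above 0 in 8 of 8 members with a median of 0.72, against 50.7% of all genes and a median of 0.003. Nothing is read from these counts, because the list was drawn up on the same contrast. The calls depended on the filter. With no filter on low counts, Ccl4 (edgeR adjusted p = 0.0274, in a range up to 0.99998 over all alternatives) and Ccl9 (0.0238, same upper end) passed, at log2 fold changes of 1.04 and 0.76. Those fold changes were nearly the same with the filter. The SE was what differed, at 0.25 without the filter against 0.35 with it for Ccl4, and at 0.18 against 0.23 for Ccl9.

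The differences rested largely on 1 library. Of the 8 tested members, 7 were highest in APB-R3 replicate 1, as were 19.5% of all genes tested. In 3 members, Ccl3, Ccl4 and Ccl20, this library exceeded every other library by more than 1.5 times, as it did in 0.681% of all genes, a fold chosen after the values were seen. The members were selected on the levels in these same libraries, so both counts describe the list and test nothing. Without it the fold change was above 0 in 5 of 8 members and their median was 0.15. Without both APB-R3 replicate 1 and vehicle replicate 2, a setting added after the data were seen, the median was 0.09. Ccl5, Ccl6 and Ccl9 then had log2 fold changes of 0.96 (SE 0.61), 0.21 (SE 0.13) and 0.36 (SE 0.23), and Ccl7 had −0.22 (SE 0.10).

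**Figure D3:**
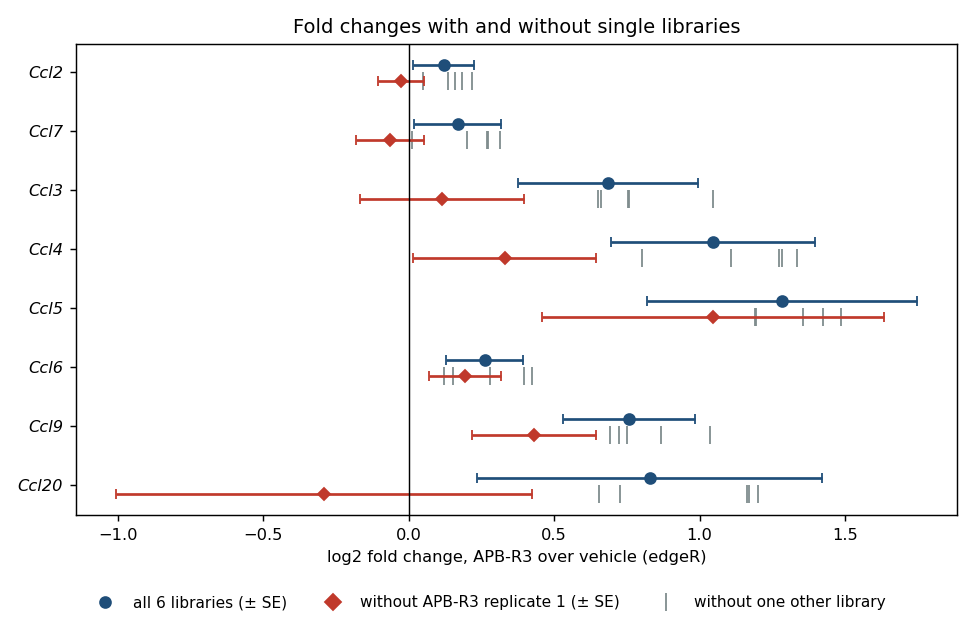
Log2 fold change of APB-R3 over vehicle for the 8 tested genes, from edgeR on all 6 libraries (blue, ± SE), without APB-R3 replicate 1 (red, ± SE) and without each other library in turn (grey ticks). Leaving out APB-R3 replicate 1 moves Ccl3 from 0.69 to 0.11 and Ccl20 from 0.83 to −0.29, while Ccl5 moves from 1.28 to 1.05.

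Other measures moved in the same library. Tnf, the gene of the cytokine TNF, stood at 19.1 CPM in APB-R3 replicate 1, with 0.834 to 4.17 CPM in the other libraries. The neutrophil attractant genes Cxcl1 and Cxcl2 had 99.5 and 260.5 CPM there, against at most 43.2 and 59.7 CPM in the other libraries, and Il1b, the gene of IL-1 beta, had 36.5 CPM against at most 2.28 CPM. These genes are named after their values were seen. The macrophage markers summed to 510 CPM in that library, inside the vehicle range of 440 to 627 CPM, and its stellate markers to 691 CPM, inside 688 to 754 CPM. Its endothelial markers were the lowest of the 6 libraries at 5454 CPM. Its share of ribosomal protein counts was 6.38%, with 5.61% to 5.92% elsewhere. The part of depth or RNA quality in its chemokine levels was not tested.

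**Figure D4:**
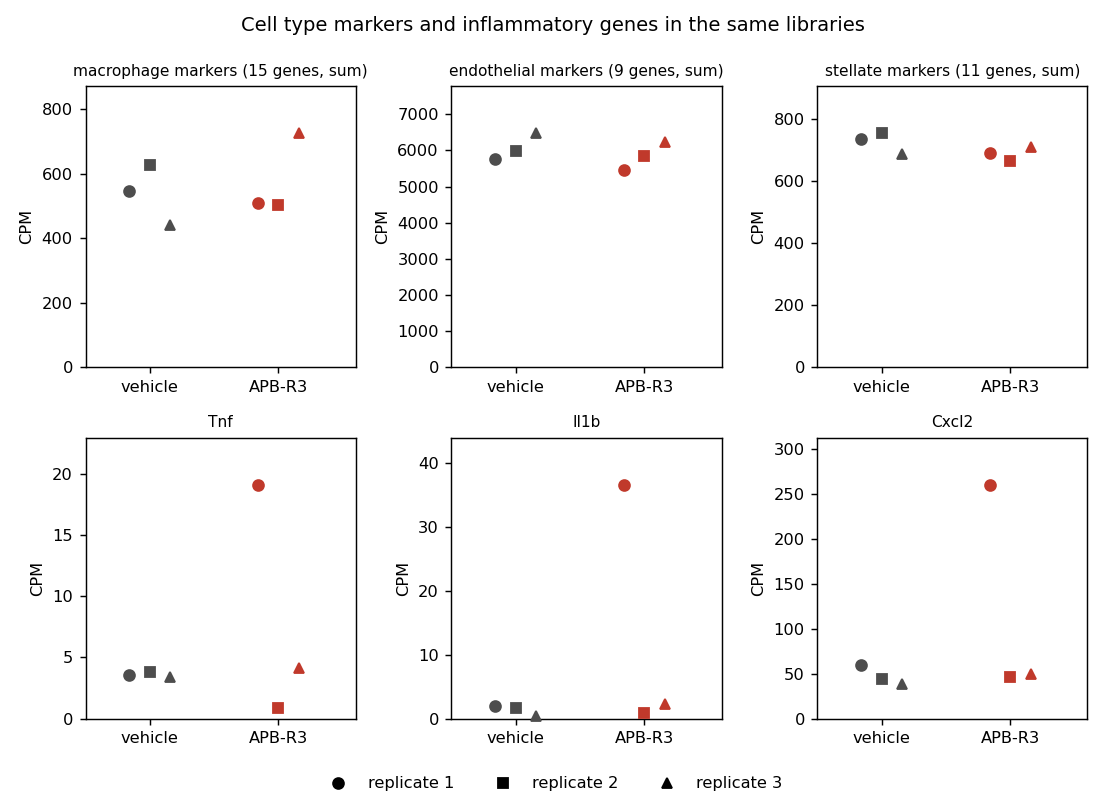
CPM in each vehicle (grey) and APB-R3 (red) library of summed macrophage, endothelial and stellate markers (upper row) and of Tnf, Il1b and Cxcl2 (lower row), on linear scales; marker shapes give the replicate number. APB-R3 replicate 1 is far above the other libraries in the lower row, with 19.1 CPM of Tnf, and within the vehicle range for macrophage markers, at 510 CPM.

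Likeness of log2 CPM over the 6 libraries was taken among genes with a mean of at least 5 CPM, leaving out predicted, Rik and unnamed genes. Among these, Ccl2 was most like Bcl2l12 (Pearson r = 0.995, Spearman rho = 1), Snx12 (0.994, rho = 1) and Firre (0.994, rho = 0.943). Ccl6 was most like Agap3 (r = 0.989, rho = 1), Qpctl (0.987, rho = 0.943) and Dis3l2 (0.985, rho = 1). Ccl7 was most like Urb2 (r = 0.989, rho = 1), Fnip1 (0.986, rho = 0.829) and Ch25h, the cholesterol 25-hydroxylase gene (0.984, rho = 1). These were the highest of 9707 values for each member, over 6 points that share libraries, so no p is given. Without the 2 libraries farthest from the median of the member, the 9 values of r lay between 0.888 and 0.997. The libraries that remain are among those on which these genes were picked, so this range is no independent check of the likeness.

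The rest of the CC chemokine family was sparsely counted. Of 15 further genes of the family, 8 had 0 counts in all 6 libraries, among them Ccl1, Ccl11 (eotaxin), Ccl17 and the Ccl21 genes, which allows up to 0.0494 CPM each, and only Ccl25 passed the filter. Among all 40879 symbols, 20496 had a count in any library and 12776 passed the filter, so a gene without counts was common outside the family too. Ccl25, the ligand of CCR9, had 3.83, 4.35 and 5.04 CPM in vehicle replicates 1 to 3 and 6.85, 5.56 and 5.76 CPM in APB-R3. Its APB-R3 libraries all lay above its vehicle libraries, as in 4.75% of genes tested. The log2 fold change of 0.45 (SE 0.32) did not pass edgeR's test (adjusted p = 0.9998). Ccl27a, Ccl8 and Ccl12 had means of 0.747, 0.536 and 0.549 CPM, and reads of Ccl27a and the Ccl21 genes are uncertain because near-identical copies exist. None of the untested genes reached 5 CPM in a group.

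CC receptors had few counts in the same cultures. Of 10 receptor genes described here, 6 had a count and 1 passed the filter, where 20496 of all 40879 symbols had a count and 12776 passed. Ccr1, a receptor for the products of Ccl3, Ccl5, Ccl6 and Ccl9, had 1.79 to 2.88 CPM over the 6 libraries. Its groups overlapped, at a log2 fold change of 0.04 (SE 0.50). Ccr2, the receptor for CCL2 and CCL7, had 6, 8 and 2 counts in vehicle and 1, 2 and 0 in APB-R3, below the filter. Ccr6, the receptor for CCL20, had 0 counts, as had Ccr4, Ccr7 and Ccr8. Of 4 atypical receptor genes, whose products bind chemokines or chemerin without G protein signalling, 3 passed the filter. Ackr4, at 0.360 to 1.43 CPM, did not. Ackr1, which carries chemokines across venular endothelium, had 23.7 to 37.7 CPM with overlapping groups. Ackr2, a scavenger of inflammatory CC chemokines, had 8.15, 8.04 and 7.61 CPM in vehicle replicates 1 to 3 and 6.13, 4.54 and 7.25 CPM in APB-R3. All its APB-R3 libraries lay below its vehicle libraries, as in 4.16% of genes tested, with a log2 fold change of −0.42 (SE 0.28) that did not pass edgeR's test (adjusted p = 0.9998). Ccrl2, which binds chemerin, had 5.52 to 12.1 CPM, with overlapping groups and the highest level in APB-R3 replicate 1.

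**Figure D5:**
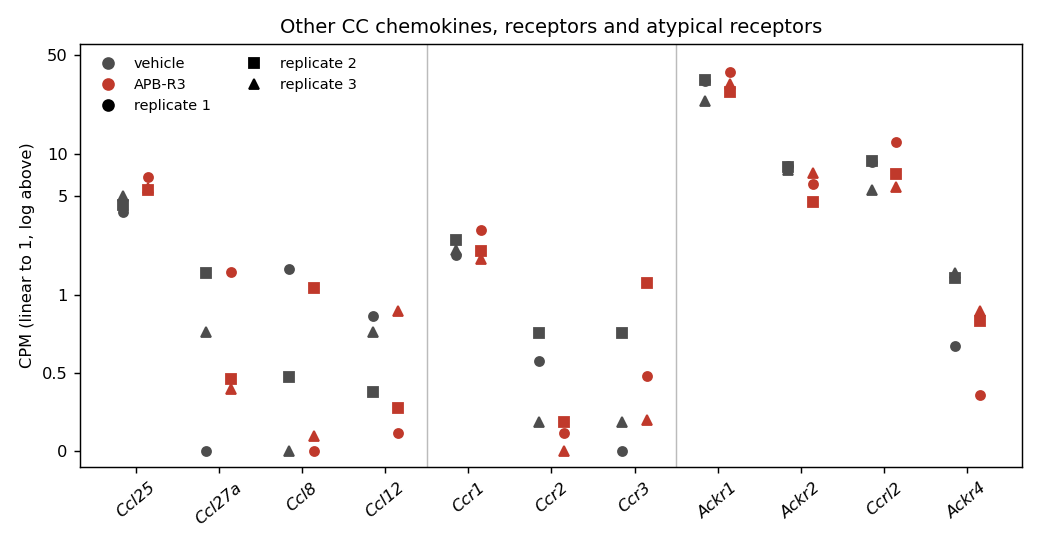
CPM of other CC chemokine genes, CC receptors and atypical receptors in each vehicle (grey) and APB-R3 (red) library, on an axis that is linear up to 1 CPM and logarithmic above; marker shapes give the replicate number. Ackr1 lies at 23.7 to 37.7 CPM, Ccr1 lies between 1.79 and 2.88 CPM, and Ackr2 is lower in each APB-R3 library than in any vehicle library.

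Genes that act around the ligands showed no member that passed edgeR's test over all genes. Of 17 genes of chemokine receptor signalling, 6 were higher and 11 lower with APB-R3 (median log2 fold change −0.04, with 0 members at an unadjusted p under 0.05). The smallest p belonged to the receptor kinase gene Grk3 at −0.96 (SE 0.73) and the Rac exchange factor gene Prex1 at −0.18 (SE 0.14). Of 12 genes of heparan sulphate proteoglycans and their synthesis, which hold chemokines at cell surfaces, 6 were higher and 6 lower (median −0.02, with 0 members at an unadjusted p under 0.05). Ext2 was at −0.20 (SE 0.12) and Ext1 at 0.16 (SE 0.12), the 2 polymerases of the heparan sulphate chain. Of 21 genes of NF-kB, AP-1 and other transcription factors and of mRNA decay factors, 11 were higher and 10 lower (median 0.02), and 1 had an unadjusted p under 0.05, a share near the 3.33% of all genes tested. That was Zfp36l2, a decay factor for AU-rich mRNAs, at −0.36 (SE 0.15), followed by Fos at 0.61 (SE 0.32). The median of all genes tested was 0.003.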

How the data were processed

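RNA of 6 libraries was taken with Trizol and made into Lexogen QuantSeq libraries, per the labels' protocols. Per the submitters' processing notes, bcl2fastq 2.20.0.422, fastp, STAR and HTSeq were used on GRCm39; other versions, options, annotation, strand setting and the use of molecular identifiers are not named there. The authors deposited raw whole-number counts per gene symbol. Numbers in the file headers run from 2 to 4 where titles run from 1 to 3, and each library was taken by its title.

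CPM was computed on library totals. Groups were compared with edgeR 4.0.16 in R 4.3.3 (filterByExpr with a minimum count of 10 and total of 15, TMM, glmQLFit and glmQLFTest, treatment as the only term), two-sided, over 12776 genes, with Benjamini-Hochberg adjusted p and a threshold of 0.05. SE is the log2 fold change over the square root of F. The scripts were tested on simulated counts. Likeness used log2 CPM with a prior count of 2. Promoter windows came from RefSeq. The 9 members and the gene lists were chosen with earlier results of these data known. Named are the 9 members, other family genes and receptors with at least 5 CPM (or the 3 highest), 2 genes with the smallest p of each further list and 3 genes most like each of the 3 most abundant members. As alternatives, the fit was repeated with DESeq2 size factors, with no scaling factors, with no filter, with a filter of 5 CPM in 3 libraries, in DESeq2 1.42.0 and limma-voom 3.58.1, with a replicate block and with each library left out. One listed gene is not reported here.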

Additional observations from a re-analysis of the deposited data

How the results depend on the processing

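Over 13 alternatives, and 1 more added after the data were seen, 102 of 110 fold changes of single members kept their direction and their side of the threshold. This tally says little about stability, because each member began at an edgeR adjusted p of 0.9998 and size was not part of it. Ccl4 counted as kept when it fell from 1.05 to 0.087 without APB-R3 replicate 1 and vehicle replicate 2, as did Ccl3 when it fell from 0.69 to 0.089. Unfiltered, 20 genes passed, of which 2 were members (Ccl4 at a log2 fold change of 1.04 and Ccl9 at 0.76, both now past the threshold); without vehicle replicate 3 the only gene to pass was no member, and in the other settings 0 passed. The number of genes that passed with 1 library left out ran from 0 to 1, and that of members was 0. The median log2 fold change of the tested members, 0.72, ran from 0.15 (without APB-R3 replicate 1) to 1.04 with 1 library left out, and was 0.088 without APB-R3 replicate 1 and vehicle replicate 2 together; it was 0.41 in limma-voom and 0.47 over the 6 members that passed the filter of 5 CPM in 3 libraries. Directions turned without APB-R3 replicate 1 for Ccl2 (−0.027), Ccl7 (−0.063) and Ccl20 (−0.29), which were at −0.10, −0.22 and −0.39 without both libraries. With 1 library left out, Ccl2 ran from −0.027 to 0.22, Ccl7 from −0.063 to 0.31 and Ccl20 from −0.29 to 1.20. Ccl20, at 0.83 in edgeR, was at 0.39 in limma-voom and 0.53 with the replicate block. The cause was not tested. With the replicate number as a block, 0 genes passed and the members' median was 0.53; same-numbered libraries had correlations of their deviations of 0.02, 0.03 and 0.05, so the numbers were not taken as pairs, although each library correlated best with its own number. Ccl5 and Ccl20 were below the filter of 5 CPM in 3 libraries, and Ccl24 was fitted only with no filter (0.80, SE 1.17). Scaling moved the median of all genes by less than 0.01. Ccl5 and Ccl20 rest on 14 to 57 counts a library.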
